A study of Mus musculus with 10 samples.

Results

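The 33 genes described here encode the transporters and enzymes that take glucose to lactate, the oxygen sensor that sets them, and a set of genes switched on when oxygen is low. They were chosen by mouse symbol and found among the 55421 genes of a read count table, where they took up 34 rows, since Aldoa stands under a pair of gene identifiers. The row ENSMUSG00000030695.16 was used for Aldoa, and the other (ENSMUSG00000114515.2) held 0.29 to 1.19 CPM (the unit of expression used here, a gene's count scaled to the TMM-adjusted total of its library). The table holds 10 RNA-seq libraries of germinal center B cells, which mutate their antibody genes and compete for antigen after immunization. The cells came from spleens of C57BL/6 mice aged 8 to 10 weeks and were enriched on day 10 after immunization with beads for the lectin PNA. Mice labelled Pbrm1-/- (HOMO) gave 2 CC and 2 CB libraries, and mice labelled Pbrm1+/+ (WT) gave 3 CC and 3 CB libraries. The labels spell out neither CC nor CB, and the series title mentions the fate of centrocytes. The protein of Pbrm1 carries bromodomains and belongs to PBAF, a complex that remodels chromatin. The labels give neither the allele, nor a Cre driver, nor whether animals were pooled, and the letters AID in the names of the count columns are not explained.

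Glycolysis splits glucose into pyruvate in the cytosol. Hexokinase traps glucose in the cell, phosphofructokinase commits it to the pathway, and fructose 2,6-bisphosphate, made and removed by the PFKFB enzymes, speeds up phosphofructokinase. Lactate dehydrogenase turns pyruvate to lactate, which leaves through monocarboxylate transporters, while pyruvate dehydrogenase kinase blocks pyruvate dehydrogenase. HIF-1 alpha is marked for destruction by prolyl hydroxylases of the EGLN family when oxygen is present, and when oxygen is scarce it raises transcription of many glycolytic genes. MYC is another activator of these genes. The germinal center is divided into a dark zone of dividing centroblasts and a light zone of centrocytes, where B cells meet antigen and T cell help, and the light zone has been reported to be low in oxygen.

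Total counts per library lay between 9954006 and 67625110, at which 1 CPM stands for 10.5 to 68.4 reads. Markers of the light zone (8 genes, Cd83, Cd86 and Myc among them) summed to 1105 to 1136 CPM in HOMO CC, 1130 to 1328 CPM in WT CC, 443 to 486 CPM in HOMO CB and 448 to 509 CPM in WT CB. Markers of the dark zone (7 genes) summed to 689 to 733, 607 to 660, 1442 to 1474 and 1295 to 1701 CPM in the same groups. Pbrm1, the targeted gene, stood at 150 to 178 CPM in the 4 HOMO libraries and at 239 to 319 CPM in the 6 WT libraries, so its transcript was lower but still present under the label Pbrm1-/-. Markers of macrophages stood apart in WT CC, where 15 listed genes summed to 1495 CPM at most, against 254 CPM at most in HOMO CC. The complement gene C1qa, for example, stood at 67.3 CPM in WT CC library 1, at 16.3 CPM in library 2 and at 2.95 CPM in library 3, with at most 0.85 CPM in every other library. A list of neutrophil genes reached 131 CPM in HOMO CC and 162 CPM in HOMO CB in the libraries numbered 2, with at most 15.4 CPM in any other library. The WT libraries numbered 3 also differed from the other WT libraries in how read counts followed GC content, as given below. Nothing in the labels says that libraries of a group came from separate animals, so each p-value here reflects only how these libraries vary, and that variation may be technical.

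The 33 genes differed widely in level, read here per length as TMM-scaled CPM per kilobase (TMM is the scaling of library totals by edgeR). The length is the one given with the counts, and the order depends on it. For Eno1 it was 5379 bases, against 2027 for the longest reference transcript. Ldha, the muscle-type lactate dehydrogenase subunit, was highest at a mean of 91.9 over all libraries, followed by the pyruvate kinase gene Pkm at 87.7 and the aldolase gene Aldoa at 84.5. The ranges of all 3 genes over the 10 libraries overlapped (70.6 to 112 for Ldha, 73.8 to 107 for Pkm, 61.7 to 104 for Aldoa), so their order is not set by these data. Tpi1 (60.0) and Gapdh (59.7) came next and also overlapped, and then Gpi1 (48.1), Eno1 (26.1), Hif1a (22.3) and the platelet-type phosphofructokinase Pfkp. They were followed by Pgk1 (14.1), Pgam1 (13.0) and the lactate transporter Slc16a1 (11.3). A further 17 genes from Bnip3l (7.76) down to Pfkm (1.23) formed a lower tier that holds both PFKFB enzymes, both glucose transporters, Hk1, Hk2 and most hypoxia response genes.

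A few members were low or close to silent. Slc16a3, a lactate exporter of strongly glycolytic tissues, averaged 0.29, and the vascular growth factor Vegfa, the prolyl hydroxylase Egln3 and the heart-type lactate dehydrogenase subunit Ldhb averaged 0.08, 0.06 and 0.05 on the same scale. Ldhb had 6 and 2 reads in HOMO CC and 0 reads in all 3 WT CC libraries, where 3 reads would have been 0.12 to 0.21 CPM. Vegfa had 5 and 0 reads in HOMO CC, 9, 5 and 17 in WT CC, 4 and 17 in HOMO CB and 1, 4 and 40 in WT CB. Egln3 had 15 reads at most in a library. For Ldhb, Vegfa and Egln3 these are levels at which differences between the groups were not detectable at this depth. Ldhb and Egln3 did not pass the filter on low counts, which left 31 members among 16596 genes tested.

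**Figure D1:**
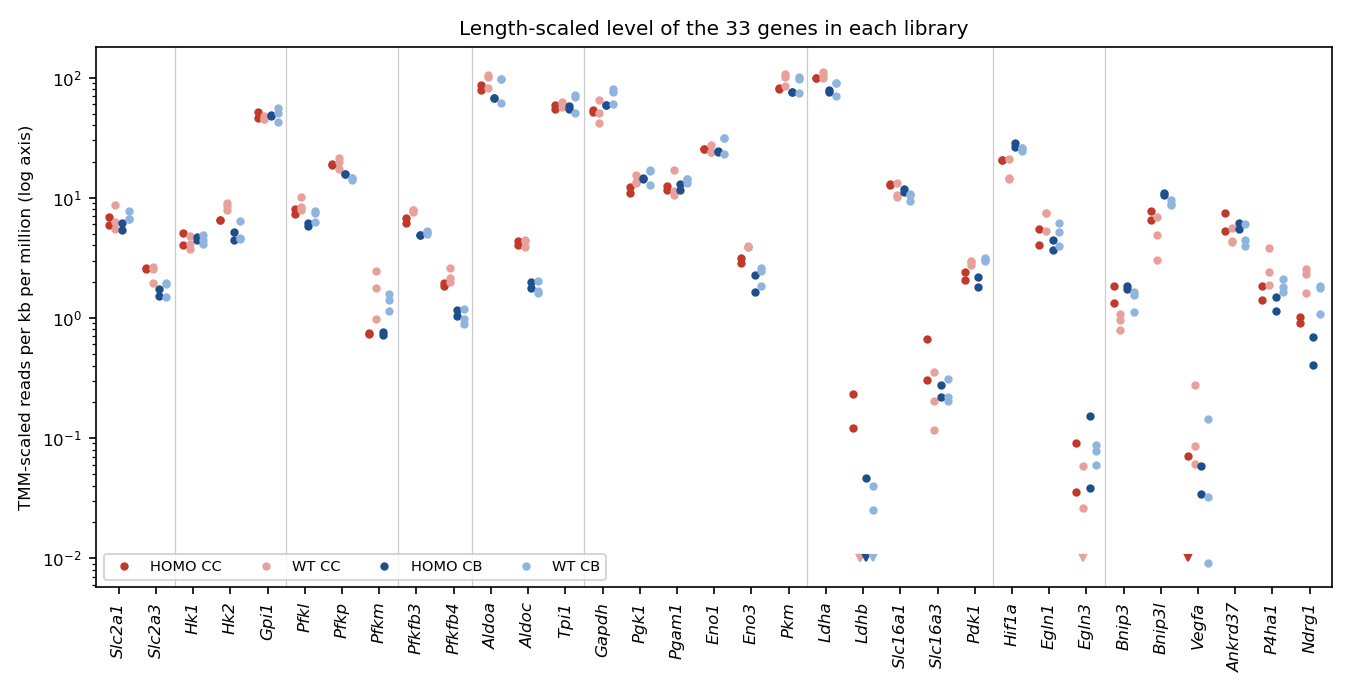
Level of each of the 33 genes in each library, as TMM-scaled CPM per kilobase on a log axis, with genes in the order of their role and vertical lines between roles. Each point is a library, coloured by group, and triangles at 0.01 mark libraries with no read; Ldha, Pkm and Aldoa sit at the top and Ldhb, Egln3 and Vegfa at the bottom in all 4 groups.

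The question of which glycolytic genes differ between the fractions was asked within each genotype, in a fit that took the spread from all 10 libraries. In WT, 7 members rose in CC against CB: the hexokinase gene Hk2, Pfkp, both PFKFB genes (Pfkfb3 and Pfkfb4), the brain-type aldolase gene Aldoc, the muscle-type enolase gene Eno3 and Ldha. In WT, 3 members fell, the glyceraldehyde phosphate dehydrogenase gene Gapdh, Hif1a and the mitophagy receptor gene Bnip3l. In HOMO, Pfkfb3 and Aldoc rose in CC against CB and 0 members fell. A gene counts as passing where the adjusted p of edgeR's quasi-likelihood F-test (Benjamini-Hochberg over all genes tested) is under 0.05, and in bulk RNA fewer cells of a type and less RNA per cell cannot be told apart.

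These counts stand beside many changes in all genes. In WT, 11.6% of all genes tested passed as higher in CC and 12.3% as lower, against 7 and 3 of 31 members. In HOMO, 2.46% of all genes passed as higher and 2.98% as lower, against 2 and 0 of 31 members. At an unadjusted p under 0.05 by edgeR, 10 members were higher and 1 lower in HOMO, beside 8.93% and 10.3% of all genes, and 10 were higher and 4 lower in WT, beside 17.7% and 18.6% of all genes. The median log2 change of the members was 0.16 in HOMO and 0.14 in WT, against -0.01 and 0.01 over all genes tested, and with an offset for GC content the members' median was 0.10 in HOMO and 0.00 in WT. In HOMO, all CC libraries lay above all CB libraries for 15 members and below for 4, where 28.8% and 33.2% of all genes did so. In WT, these counts were 8 and 3, where 16.5% and 17.9% of all genes did so. A change of the same sign in both genotypes was seen for 16 members that were higher and 6 that were lower in CC, where 38.1% and 38.6% of all genes did so. All 10 members that passed in WT had the same sign in HOMO, and the share among all genes that passed in WT was not counted. The 2 calls in HOMO rest on 2 libraries a group: Aldoc had an adjusted p of 0.0762, 0.0828 and 0.0625 by edgeR without HOMO CC library 2, HOMO CB library 2 and HOMO CB library 3, and Pfkfb3 passed in 15 of 27 alternative analyses, failing without any 1 of the 4 HOMO libraries or without WT CB library 1 or 2 (adjusted p of 0.0599 to 0.30). With the WT number as a block the count in HOMO was larger, at 8 members higher (Slc2a3, Hk2, Pfkl, Pfkp, Pfkfb3, Pfkfb4, Aldoc and Ldha) and 1 lower (Hif1a), beside 6.3% and 7.53% of all genes. The same block gave 10 members higher and 2 lower in WT, beside 16.9% and 18.4% of all genes, with Slc2a3, Pfkl and Egln1 added and Gapdh lost.

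**Figure D2:**
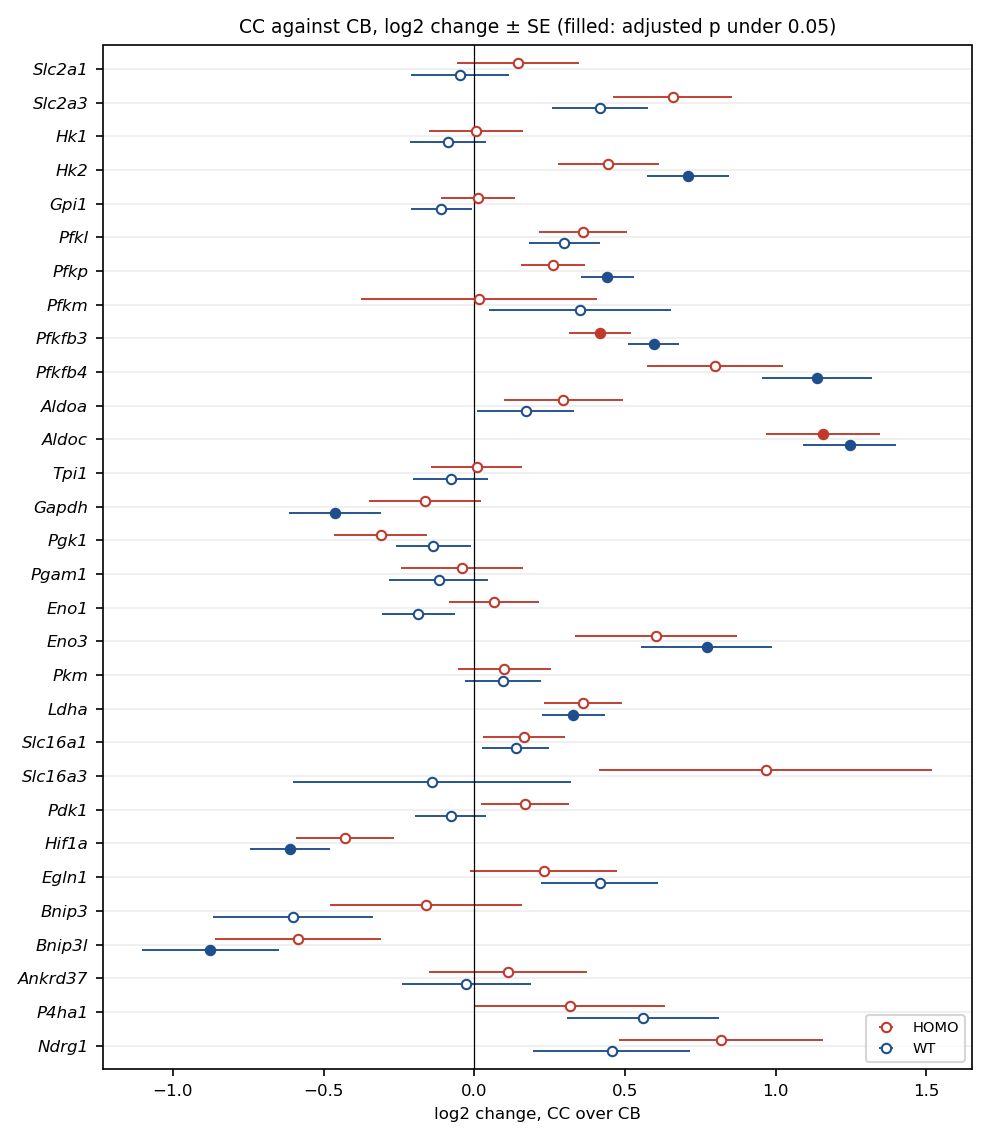
Log2 change of CC over CB for 30 of the members, in HOMO (red) and WT (blue), with the standard error of the edgeR fit as a bar and filled points for an adjusted p under 0.05. Aldoc, Pfkfb4, Hk2, Pfkfb3, Eno3 and Pfkp lie right of 0 in both genotypes and Hif1a and Bnip3l left of it; Vegfa is left out for its wide error, and Ldhb and Egln3 were not tested.

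Glucose enters B cells through the transporters encoded by Slc2a1 and Slc2a3. Slc2a1 had 20.6 and 24.3 CPM in HOMO CC, 18.9 and 21.5 CPM in HOMO CB, 19.3, 22.1 and 30.4 CPM in WT CC and 23.1, 23.5 and 27.1 CPM in WT CB. The fractions overlapped in both genotypes, and the log2 change between CC and CB was 0.15 (SE 0.20) in HOMO and -0.05 (SE 0.16) in WT. Slc2a3, which has a high affinity for glucose, was higher in CC without passing: its log2 change was 0.66 (SE 0.20, edgeR adjusted p = 0.080) in HOMO and 0.42 (SE 0.16, adjusted p = 0.0811) in WT. Its CPM was 18.9 and 18.4 in HOMO CC against 11.1 and 12.5 in HOMO CB, which do not overlap, and 14.1, 19.2 and 18.5 in WT CC against 14.2, 13.9 and 10.8 in WT CB, which overlap through WT CC library 1.

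Hexokinase showed a change in one of its isoforms. Hk2, the isoform induced in growing and activated cells (chr6:82725025-82774454, mm10), had 39.1 and 38.8 CPM in HOMO CC, against 26.5 and 30.6 CPM in HOMO CB. Its values in WT were 53.5, 47.3 and 50.9 CPM in CC, against 27.5, 27.1 and 37.9 CPM in CB. In both genotypes all CC libraries lay above all CB libraries. Hk2 rose 1.63-fold in WT (log2 change 0.71, SE 0.14, edgeR adjusted p = 0.00417), against a log2 change of 0.44 in HOMO (SE 0.17, adjusted p = 0.168). Hk1, the isoform of most tissues, lay between 32.0 and 43.2 CPM in all 10 libraries, with log2 changes of 0.01 in HOMO and -0.09 in WT. Gpi1, the isomerase that follows hexokinase, had 330.4 and 298 CPM in HOMO CC, 312 and 312 CPM in HOMO CB, 311, 291 and 290.1 CPM in WT CC and 329.9, 357 and 276 CPM in WT CB. Its groups overlapped in both genotypes, and its log2 changes were 0.01 (SE 0.12) and -0.11 (SE 0.10).

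Phosphofructokinase was higher in CC for the platelet-type isoform in WT. Pfkp (chr13:6579768-6648777) had 248 and 256 CPM in HOMO CC, against 210.3 and 211 CPM in HOMO CB. WT libraries had 263, 284 and 234 CPM in CC, against 194, 195 and 187 CPM in CB. The CC libraries were above the CB libraries in both genotypes, and Pfkp rose 1.36-fold in WT (log2 change 0.44, SE 0.088, edgeR adjusted p = 0.00511), with 0.26 in HOMO (SE 0.11, adjusted p = 0.208). Pfkl, the liver-type subunit, did not pass, although all its CC libraries lay above the CB libraries in both genotypes, with log2 changes of 0.36 (SE 0.15) in HOMO and 0.30 (SE 0.12) in WT. Pfkm, the muscle-type subunit, had 8.25, 5.90 and 3.30 CPM in WT CC, with log2 changes of 0.01 in HOMO and 0.35 (SE 0.30) in WT.

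Of the enzymes that set fructose 2,6-bisphosphate, Pfkfb3 passed in both genotypes and Pfkfb4 in WT. Pfkfb3 (chr2:11471433-11554077), whose product mostly makes fructose 2,6-bisphosphate, had 47.0 and 51.2 CPM in HOMO CC, against 36.9 and 36.7 CPM in HOMO CB. WT values were 57.3, 59.9 and 59.4 CPM in CC, against 38.0, 39.3 and 39.6 CPM in CB. The libraries of a group lay close together and the fractions were apart in both genotypes. Pfkfb3 rose 1.33-fold in HOMO (log2 change 0.42, SE 0.10, edgeR adjusted p = 0.0390) and 1.51-fold in WT (0.59, SE 0.083, adjusted p = 0.000713). Pfkfb4 (chr9:108991778-109032228), its less abundant relative, had 9.03 and 9.48 CPM in HOMO CC, against 5.64 and 5.01 CPM in HOMO CB. In the WT libraries it had 9.77, 12.6 and 10.4 CPM in CC, against 4.29, 4.74 and 5.79 CPM in CB. Every CC library was above every CB library for Pfkfb4 too. It rose 2.20-fold in WT (log2 change 1.14, SE 0.18, edgeR adjusted p = 0.00165), against a log2 change of 0.80 in HOMO (SE 0.22, adjusted p = 0.0649).

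Aldolase showed the largest change between fractions among the members that passed. Aldoc (chr11:78322968-78327781) had 14.3 and 13.1 CPM in HOMO CC, against 5.75 and 6.51 CPM in HOMO CB. WT libraries had 12.6, 14.4 and 14.2 CPM in CC, against 5.28, 5.49 and 6.55 CPM in CB. The lowest CC library of either genotype was above the highest CB library of both, and the genotypes overlapped within each fraction. Aldoc rose 2.23-fold in HOMO (log2 change 1.16, SE 0.19, edgeR adjusted p = 0.00536) and 2.37-fold in WT (1.25, SE 0.16, adjusted p = 0.000348). Aldoa, the abundant aldolase, had 254 and 228 CPM in HOMO CC, 197 and 196 CPM in HOMO CB, 296, 303 and 240.0 CPM in WT CC and 283, 283 and 179.7 CPM in WT CB. HOMO CC lay above HOMO CB, WT CB library 3 stood far below the other 2 WT CB libraries, and the log2 changes of Aldoa were 0.30 (SE 0.20) in HOMO and 0.17 (SE 0.16) in WT. Tpi1, the triose isomerase, had log2 changes of 0.01 in HOMO and -0.08 in WT.

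Aldoc and Pfkfb3 were the members that passed in both genotypes, and the windows around their RefSeq transcript starts on GRCm38.p6 (250 bases before a start and 50 after it) are shown to let their promoter letters be compared. Both genes have 2 such windows. Capitals mark the core of a hypoxia response element, ACGTG or GCGTG, on either strand (CACGT or CACGC when read on the printed strand), and the E-box CACGTG, which holds ACGTG on both strands. The first Aldoc window spans the start of the annotated gene and the other lies inside it. For Pfkfb3, which runs on the minus strand, the first window lies inside the gene and the other spans its 5′ end. Each is printed 5′ to 3′ along the gene's strand.
Aldoc, chr11:78322823-78323122, plus strand: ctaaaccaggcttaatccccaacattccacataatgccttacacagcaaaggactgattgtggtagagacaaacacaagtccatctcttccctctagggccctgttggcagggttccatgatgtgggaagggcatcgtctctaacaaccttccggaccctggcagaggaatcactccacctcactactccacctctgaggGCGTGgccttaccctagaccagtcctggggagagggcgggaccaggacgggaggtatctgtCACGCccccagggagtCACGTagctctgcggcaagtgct
Aldoc, chr11:78323948-78324247, plus strand: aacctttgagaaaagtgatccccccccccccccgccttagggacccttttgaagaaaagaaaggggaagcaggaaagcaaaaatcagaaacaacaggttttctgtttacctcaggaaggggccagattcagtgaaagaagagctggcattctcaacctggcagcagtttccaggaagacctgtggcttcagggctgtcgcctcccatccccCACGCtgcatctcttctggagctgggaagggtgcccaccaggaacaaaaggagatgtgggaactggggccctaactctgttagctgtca
Pfkfb3, chr2:11502041-11502340, minus strand: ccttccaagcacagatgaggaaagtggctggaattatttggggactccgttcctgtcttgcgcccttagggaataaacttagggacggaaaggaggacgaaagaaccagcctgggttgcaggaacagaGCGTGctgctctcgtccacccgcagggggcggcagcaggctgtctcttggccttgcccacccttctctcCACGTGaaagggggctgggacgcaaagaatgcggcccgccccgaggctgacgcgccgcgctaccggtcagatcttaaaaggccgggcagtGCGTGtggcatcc
Pfkfb3, chr2:11553880-11554179, minus strand: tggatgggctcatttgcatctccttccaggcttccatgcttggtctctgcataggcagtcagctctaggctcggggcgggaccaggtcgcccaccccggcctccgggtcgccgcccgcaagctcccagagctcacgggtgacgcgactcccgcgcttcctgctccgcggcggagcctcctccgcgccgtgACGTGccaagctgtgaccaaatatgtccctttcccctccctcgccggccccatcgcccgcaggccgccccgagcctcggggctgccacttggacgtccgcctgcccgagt
Counted from 1 at the first transcribed base, the first Aldoc window has GCGTG at -50, CACGC at 12 and CACGT at 28, and the other has CACGC at -39. The first Pfkfb3 window has GCGTG at -122, the E-box at -53 and GCGTG at 38, and the other has ACGTG at -60. Of the 44 windows found for 30 members, 54.5% held ACGTG, 59.1% held GCGTG and 13.6% held CACGTG on either strand, against 19.6%, 32.4% and 7.15% of all 32851 windows of the same length. Counted by gene, 21, 21 and 6 of the 30 members had at least 1 such window. Some windows of Aldoa, Eno1 and Pfkm overlap and hold the same match, and windows of matched GC content were not compared. These are matches of letters and not sites of binding. No window for Bnip3l, Slc2a3 or Ndrg1 was used here.

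The lower steps, from Gapdh to Pkm, did not move as a group. Gapdh (chr6:125161715-125166467) had 220.0 and 215 CPM in HOMO CC, against 242 and 244 CPM in HOMO CB. Its WT values were 173, 208 and 271 CPM in CC, against 315, 331 and 250.5 CPM in CB. The WT fractions overlapped through the libraries numbered 3, which were the highest in CC and the lowest in CB. Gapdh fell in WT (log2 change -0.46, SE 0.15, edgeR adjusted p = 0.0485), with -0.16 (SE 0.19) in HOMO, and passed in 9 of 27 alternative analyses. Eno3 (chr11:70657202-70662513) had 5.49 and 4.93 CPM in HOMO CC against 2.86 and 3.98 CPM in HOMO CB, and 6.73, 6.88 and 6.74 CPM in WT CC against 4.49, 4.26 and 3.22 CPM in WT CB. The fractions were apart in both genotypes, and the WT CC libraries nearly coincided. Eno3 rose 1.71-fold in WT (log2 change 0.77, SE 0.22, edgeR adjusted p = 0.0256), with 0.60 (SE 0.27, adjusted p = 0.250) in HOMO, and passed in 18 of 27 alternatives, failing without WT CC library 1 or 2 or WT CB library 1 or 2 (adjusted p of 0.0552 to 0.0656).

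Pkm, the last enzyme before pyruvate, had 401 and 409 CPM in HOMO CC, 376 and 379 CPM in HOMO CB, 534, 501 and 424 CPM in WT CC and 490.1, 505 and 369 CPM in WT CB. In HOMO its CC libraries were just above the CB libraries, in WT they overlapped, and the log2 change was 0.10 in both. Pgk1, Pgam1 and Eno1, a kinase, a mutase and the main enolase, had log2 changes between -0.31 and 0.06 in HOMO and between -0.19 and -0.12 in WT, and 0 of the 3 passed. Transcripts of several lower enzymes share long stretches with other genes: 72.2% of the 50-base windows of the longest Eno1 transcript were also found in transcripts of other genes, as were 68.0% for Pgk1, 41.5% for Pgam1, 34.4% for Pkm and 27.8% for Gapdh, so their counts are uncertain. For Hk2, Pfkp, Pfkfb4, Aldoc and Eno3 that share was 0%, and for Pfkfb3 it was 0.63%.

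At the end of the pathway Ldha (chr7:46841475-46855627) had 325 and 329 CPM in HOMO CC, against 250.3 and 259 CPM in HOMO CB. In the WT libraries it had 371, 349 and 326 CPM in CC, against 299, 300.2 and 234 CPM in CB. CC was above CB in both genotypes. Ldha rose 1.26-fold in WT (log2 change 0.33, SE 0.11, edgeR adjusted p = 0.0432), against a log2 change of 0.36 in HOMO (SE 0.13, adjusted p = 0.143). It passed in 14 of 27 alternatives in WT and failed without any 1 of the 4 HOMO libraries, WT CC library 1 or 2, or WT CB library 1 (adjusted p of 0.0656 to 0.137). Of its 50-base windows 16.6% were shared with other genes, all 14 of them pseudogenes. Slc16a1, which carries lactate and pyruvate across the membrane, had log2 changes of 0.16 (SE 0.14) in HOMO and 0.14 (SE 0.11) in WT. Pdk1, which blocks pyruvate dehydrogenase, had 0.17 (SE 0.15) in HOMO and -0.08 (SE 0.12) in WT.

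**Figure D3:**
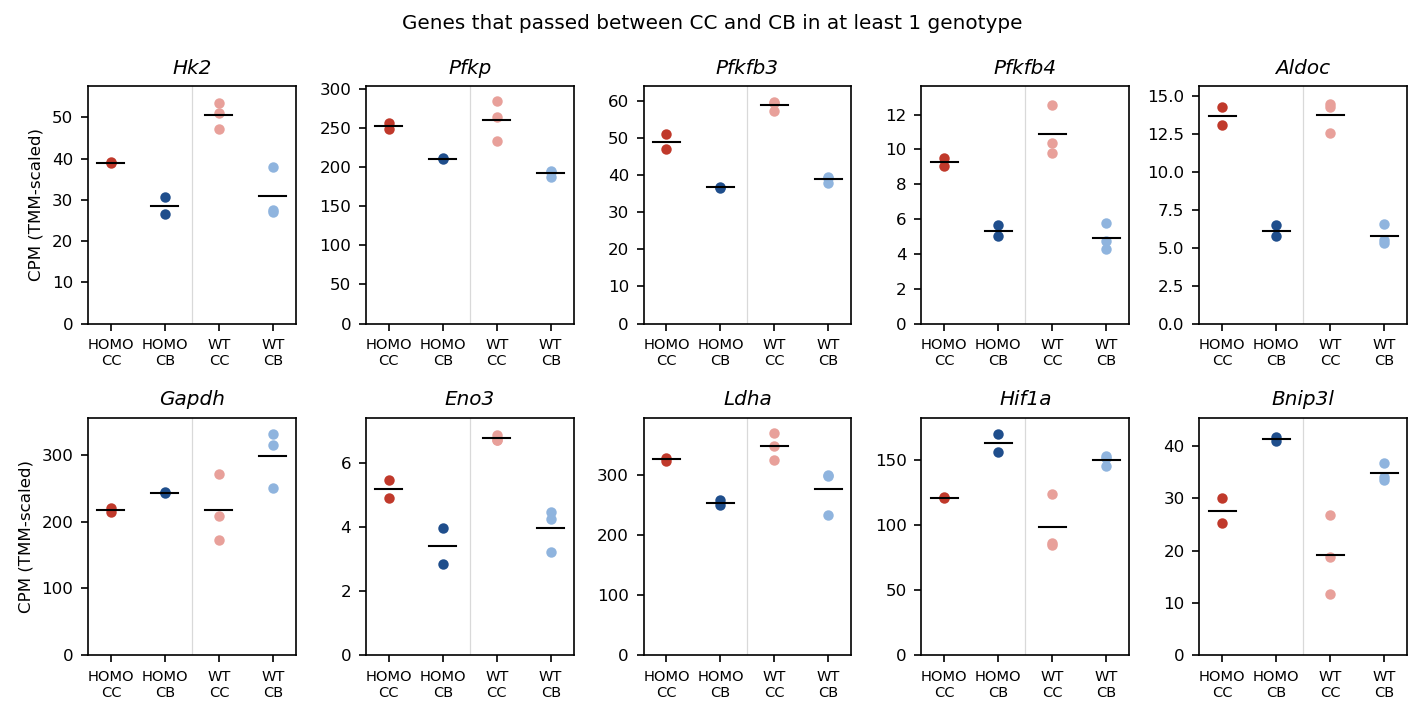
TMM-scaled CPM of the 10 genes that passed between CC and CB in at least 1 genotype, with a point per library and a line at the group mean; axes start at 0. Hk2, Pfkp, Pfkfb3, Pfkfb4, Aldoc, Eno3 and Ldha are higher in CC in both genotypes, Hif1a and Bnip3l are lower, and the WT fractions of Gapdh overlap.

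Among the oxygen sensor genes, the transcript of the HIF subunit itself was lower in CC. Hif1a (chr12:73901375-73947530) had 121 and 120.5 CPM in HOMO CC, against 169.5 and 156 CPM in HOMO CB. WT libraries had 84.6, 86.3 and 124 CPM in CC, against 145, 152 and 153 CPM in CB. All CC libraries lay below all CB libraries, and WT CC library 3 was nearer to HOMO CC than to the other WT CC libraries. Hif1a fell in WT (log2 change -0.61, SE 0.13, edgeR adjusted p = 0.00786), with -0.43 (SE 0.16, adjusted p = 0.168) in HOMO. These values are transcript levels, and HIF-1 alpha is known to be set mainly by the stability of the protein. Egln1, the main oxygen-sensing hydroxylase, had log2 changes of 0.23 (SE 0.24) in HOMO and 0.42 (SE 0.20) in WT, and passed in neither.

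The hypoxia response genes outside glycolysis did not share a direction. Bnip3l (chr14:66985239-67008877), whose product marks mitochondria for removal, had 25.3 and 30.1 CPM in HOMO CC, against 40.9 and 41.8 CPM in HOMO CB. Its WT values were 18.8, 11.6 and 26.7 CPM in CC, against 33.5, 34.1 and 36.8 CPM in CB. CC was below CB in both genotypes. Bnip3l fell in WT (log2 change -0.88, SE 0.23, edgeR adjusted p = 0.0181), with -0.58 (SE 0.27, adjusted p = 0.281) in HOMO, and it did not pass without WT CC library 1 (adjusted p = 0.0571). Of its 50-base windows 23.4% were shared with a pseudogene. Its relative Bnip3 had log2 changes of -0.16 (SE 0.32) in HOMO and -0.60 (SE 0.27) in WT. The collagen prolyl hydroxylase gene P4ha1 had 0.32 (SE 0.32) and 0.56 (SE 0.25), Ndrg1 had 0.82 (SE 0.34) and 0.46 (SE 0.26), and Ankrd37 had 0.11 and -0.03, in HOMO and in WT in that order. None of these 4 genes passed by edgeR in either genotype (adjusted p of at least 0.126).

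Genes listed as markers of the zones and of other cell types differed between the fractions as well. Of all genes, 2.46% rose in CC and 2.98% fell in HOMO, and 11.6% and 12.3% did so in WT. Of 8 light zone markers 7 rose in CC in HOMO and 8 in WT, and of 7 dark zone markers 6 fell in HOMO and 7 in WT. Of 2 genes tested from the list of stroma and follicular dendritic cells, Cr2 and Pecam1, both rose in both genotypes. The 7 genes of that list found in the table summed to 900 to 966 CPM in HOMO CC and 524 to 543 CPM in HOMO CB. In WT they summed to 690 to 742 CPM in CC and 387 to 450 CPM in CB. Up to 5 of these 7 genes had no read in a library, and only Cr2 and Pecam1 passed the filter on low counts. That sum therefore cannot stand for the list as a whole or measure RNA of those cells. Of 7 T cell genes 1 rose, Lck in both genotypes, and all 7 had a positive log2 change in both. Of 7 erythroid genes tested, 0 passed in HOMO and 4 rose in WT. All 8 genes of that list, tested or not, summed to 74.0 CPM in the first WT CC library, 18.6 CPM in the second and 6.31 CPM in the third. In the other 7 libraries this sum lay between 3.39 and 8.52 CPM. Transcripts of the mitochondrial genome made up 9144 to 9445 CPM of HOMO CC, against 11894 to 13132 CPM of HOMO CB. In WT CC they stood at 27345, 16080 and 9369 CPM in libraries 1, 2 and 3, against a range of 12841 to 19958 CPM in WT CB. Of 15 listed macrophage genes, 0 passed in HOMO and 12 passed as higher in CC in WT. The macrophage sum was 1495 CPM in library 1 of WT CC, 595 CPM in library 2 and 316 CPM in library 3. Without the first 2 of these libraries, the log2 change in WT was 0.61 for Pfkfb3, 1.07 for Pfkfb4 and 1.30 for Aldoc. It was 0.72 for Hk2, 0.29 for Pfkp, 0.77 for Eno3 and 0.24 for Ldha. For Gapdh, Hif1a and Bnip3l it was -0.13, -0.27 and -0.37. That comparison keeps 1 WT CC library, which is assumed to vary like the other groups, so only effect sizes are given here. The library kept, number 3, also differed in how its counts followed GC content (Spearman correlation 0.15, against 0.43 and 0.55 in libraries 1 and 2). The part that zone composition, RNA of other cell types and mitochondrial RNA have in these values was not tested.

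Within their families Hk2, Aldoc, Eno3 and Pfkfb4 had larger mean shares in CC than in CB in both genotypes. Per length, Hk2 made up 58.9% ± 3.6 of the 2 hexokinases in HOMO CC (SD, n = 2), against 51.2% ± 3.7 in HOMO CB (n = 2). In WT its share was 66.8% ± 2.5 in CC, against 53.3% ± 6.6 in CB (SD, n = 3 each). The lowest CC share was above the highest CB share in both genotypes. The share of Aldoc among aldolases was 4.82% ± 0.07 in HOMO CC and 2.71% ± 0.25 in HOMO CB, and 4.25% ± 0.71 in WT CC and 2.16% ± 0.86 in WT CB. For Eno3 among enolases it was 10.6% ± 0.81 and 7.48% ± 1.6 in HOMO CC and CB, and 13.5% ± 1.0 and 7.41% ± 0.17 in WT CC and CB. The Eno3 share also rests on the counts of Eno1, which are uncertain, since 72.2% of its 50-base windows are shared with other genes. Pfkfb4 held 22.6% ± 0.46 of the 2 PFKFB genes in HOMO CC and 18.3% ± 1.2 in HOMO CB, against 22.3% ± 2.0 and 16.4% ± 1.9 in WT CC and CB. Aldoa, Eno1 and Pfkfb3 thus remained the main isoforms in every group. Ldha made up 99.8% of lactate dehydrogenase in HOMO CC and more in the other groups. By raw counts with no length scaling, the mean shares of Hk2, Aldoc, Eno3 and Pfkfb4 were also larger in CC, but their sizes moved. Hk2 then held 50.1% and 42.3% in HOMO CC and CB, and 58.5% and 44.5% in WT CC and CB. Eno3 held 3.68% and 2.55% in HOMO CC and CB, and 4.79% and 2.52% in WT CC and CB. All these shares were not tested and rest on the same values as the changes above.

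**Figure D4:**
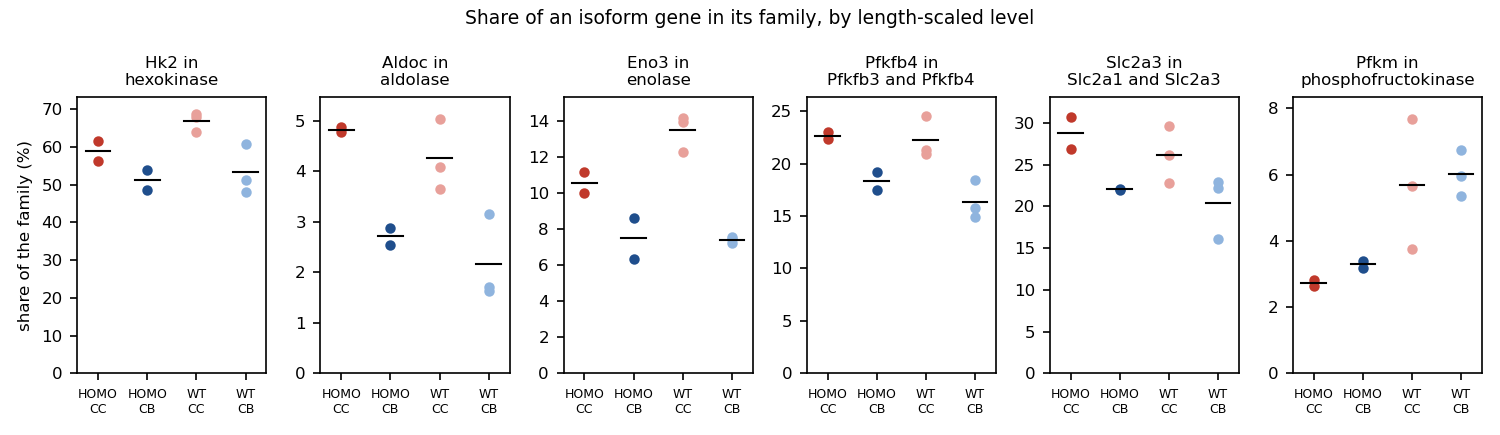
Share of 6 isoform genes in their family, in percent of the family's summed length-scaled level, with a point per library and a line at the group mean; axes start at 0. Hk2, Aldoc, Eno3, Pfkfb4 and Slc2a3 have higher mean shares in CC than in CB in both genotypes, and Pfkm has lower shares in HOMO than in WT.

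HOMO was compared with WT for the same genes within each fraction, and 0 of 31 members passed in CC and 0 in CB by edgeR. Few genes passed at all: 0% higher and 0% lower of all genes tested in CC, and 0.00603% higher and 0.0181% lower in CB. At an unadjusted p under 0.05, 2 members were higher and 7 lower in HOMO CC, beside 8.68% and 10.3% of all genes, and 0 were higher and 3 lower in HOMO CB, beside 6.33% and 6.19% of all genes. The median log2 change of the members was -0.09 in CC and -0.13 in CB, against -0.03 and -0.04 over all genes. In CC, both HOMO libraries lay above all WT libraries for 1 member and below for 10, where 17.8% and 17.4% of all genes did so. In CB, these counts were 5 and 9, where 18.9% and 16.3% of all genes did so. DESeq2 called 0 members higher and 2 lower in each fraction, beside 2.56% and 3.26% of the genes to which it gave an adjusted p in CC and 1.13% and 1.16% in CB. limma-voom called 0 members in either fraction.

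A group of 5 members (Ndrg1, Pdk1, Pfkm, P4ha1 and Pfkfb3) had each HOMO library below every WT library of its fraction, in CC and in CB, and 1 member (Bnip3) had each above, where 7.89% of all genes lay below in both fractions and 9.32% above. These 6 members are named because of their values. Ndrg1 (chr15:66929318-66969640), a differentiation and stress response gene, had 6.65 and 5.98 CPM in HOMO CC, against 10.6, 15.3 and 16.8 CPM in WT CC. In CB it had 4.58 and 2.69 CPM in HOMO, against 7.17, 11.7 and 12.1 CPM in WT. The log2 change was -1.17 (SE 0.31, edgeR adjusted p = 0.134) in CC and -1.53 (SE 0.31, adjusted p = 0.167) in CB. It was called lower by DESeq2 in CC (adjusted p = 0.0185) and in CB (0.00109).

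Pdk1 (chr2:71873224-71903858) had 18.8 and 15.9 CPM in HOMO CC, against 21.5, 23.2 and 22.8 CPM in WT CC. In CB it had 14.0 and 16.9 CPM in HOMO, against 23.7, 24.7 and 22.9 CPM in WT, so the WT libraries of both fractions lay close together above all HOMO libraries. The log2 change was -0.37 (SE 0.14, edgeR adjusted p = 0.190) in CC and -0.62 (SE 0.13, adjusted p = 0.174) in CB, where DESeq2 called it lower (adjusted p = 0.00392). Pfkm (chr15:98092589-98132451) had 2.50 and 2.47 CPM in HOMO CC, against 8.25, 5.90 and 3.30 CPM in WT CC. In CB it had 2.53 and 2.40 CPM in HOMO, against 5.28, 4.70 and 3.83 CPM in WT. The 4 HOMO libraries thus lay close together, while the WT libraries were spread. In WT CC the values of Pfkm fell from library 1 to library 3, as did the macrophage sums, and a link was not tested. The log2 change was -1.24 (SE 0.37, edgeR adjusted p = 0.144) in CC and -0.90 (SE 0.35, adjusted p = 0.349) in CB, and DESeq2 called it lower in CC (adjusted p = 0.0419). Per length, Pfkm held 2.73% ± 0.13 of the phosphofructokinases in HOMO CC and 5.69% ± 2.0 in WT CC, and 3.29% ± 0.15 in HOMO CB and 6.02% ± 0.69 in WT CB (SD, n = 2 in HOMO and 3 in WT). By raw counts its mean share was 0.81% in HOMO CC and 1.76% in WT CC, and 0.97% in HOMO CB and 1.88% in WT CB.

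P4ha1 (chr10:59323296-59373304) had 7.50 and 5.79 CPM in HOMO CC, against 15.6, 9.94 and 7.79 CPM in WT CC. Its WT CC values, like those of Pfkm, were highest in library 1, which also had the largest macrophage sum, and a link was not tested. In CB it had 6.11 and 4.65 CPM in HOMO, against 8.58, 7.38 and 6.80 CPM in WT. The log2 changes were -0.74 (SE 0.29, edgeR adjusted p = 0.215) and -0.50 (SE 0.28, adjusted p = 0.485). Pfkfb3 was lower by smaller steps, with log2 changes of -0.26 (SE 0.095) in CC and -0.08 (SE 0.093) in CB. Bnip3 had 4.15 and 3.03 CPM in HOMO CC against 1.81, 2.43 and 2.17 CPM in WT CC, and 3.92 and 4.15 CPM in HOMO CB against 3.70, 3.54 and 2.52 CPM in WT CB, with log2 changes of 0.76 (SE 0.30, edgeR adjusted p = 0.213) and 0.32 (SE 0.28, adjusted p = 0.658). Its transcript shares 62.4% of its 50-base windows with other genes. Slc16a3 was the member with the largest positive log2 change in CC, 1.15 (SE 0.51, edgeR adjusted p = 0.256), at 3.54 and 1.61 CPM in HOMO CC and 0.62, 1.09 and 1.89 CPM in WT CC, which overlap.

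**Figure D5:**
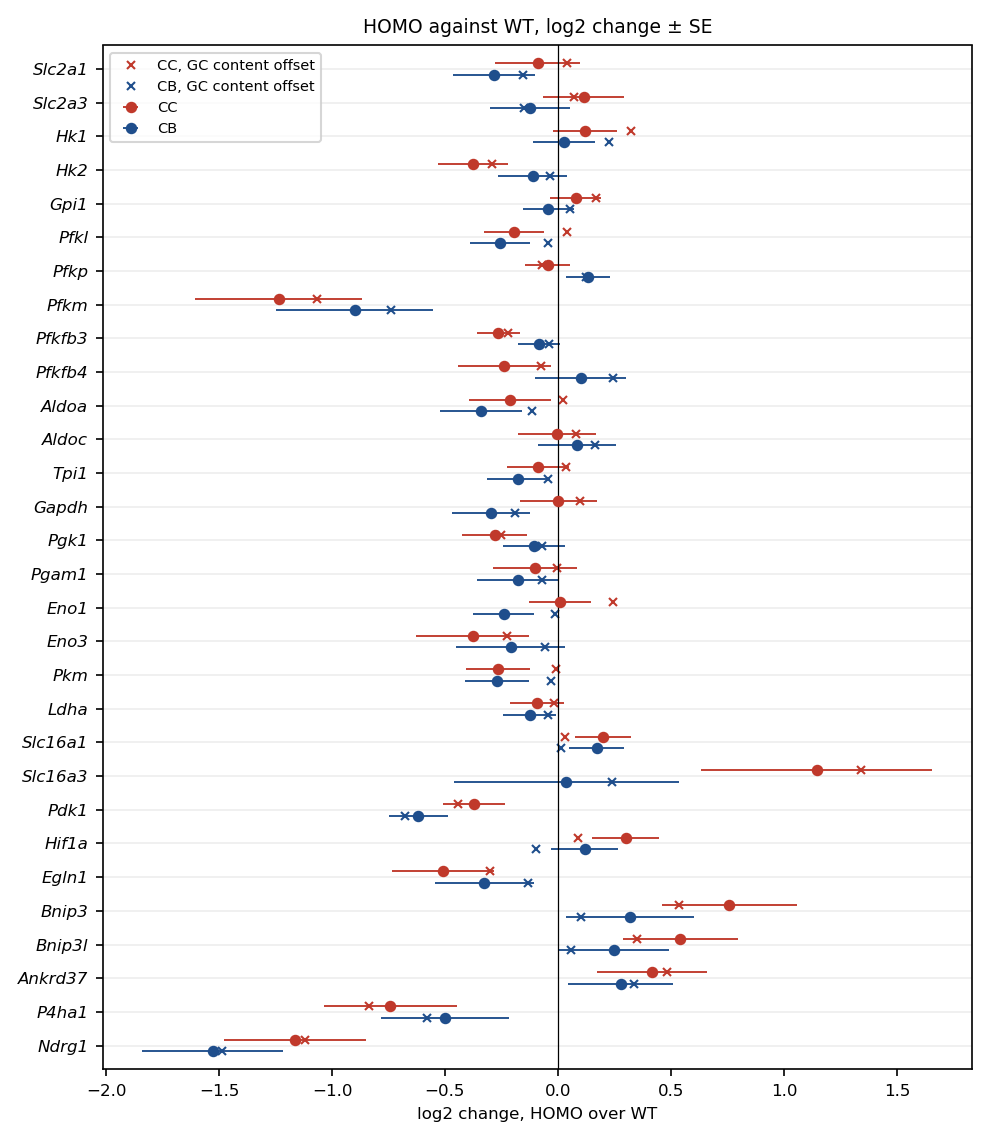
Log2 change of HOMO over WT for 30 of the members in CC (red) and CB (blue), with the standard error of the edgeR fit as a bar; crosses give the value after an offset for GC content, and no gene had an adjusted p under 0.05. Ndrg1, Pfkm, Pdk1 and P4ha1 stay left of 0 with and without the offset, while Aldoa and Pkm move close to 0 in both fractions; Vegfa is left out for its wide error, and Ldhb and Egln3 were not tested.

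The size of these differences moved with the WT libraries numbered 3. Across 8802 genes, which are not independent replicates, the Spearman correlation of each library's deviation with exonic GC content was -0.17 and -0.22 in HOMO CC and 0.43, 0.55 and 0.15 in WT CC, and it was -0.63 and -0.61 in HOMO CB and 0.15, 0.25 and -0.46 in WT CB. The library numbered 3 was thus the WT library nearest to HOMO in each fraction. Without both libraries of WT number 3, 5 members passed as higher in HOMO CC and 9 as lower, beside 16.5% and 14.8% of all genes, and 1 passed as higher in HOMO CB and 11 as lower, beside 15.3% and 15.1% of all genes. Leaving out WT CC library 3 alone gave 3 members higher and 2 lower in HOMO CC, beside 7.45% and 7.37% of all genes, and leaving out WT CB library 3 alone gave 0 higher and 6 lower in HOMO CB, beside 6.49% and 5.64% of all genes. Without both, the lower genes in CB included the abundant enzymes Pkm (log2 change -0.37, edgeR adjusted p = 0.000388), Aldoa (-0.50, 8.72e-05), Eno1 (-0.35, 0.000498), Tpi1 (-0.29, 0.00265), Gapdh (-0.38, 0.00211) and Ldha (-0.21, 0.0131). In CC the higher genes included Hif1a (0.53, edgeR adjusted p = 6.39e-05) and Bnip3l (0.87, 0.00415), which are among the members of lowest GC content (41.3% and 41.9%). With all libraries and an offset for GC content 0 members passed, the median log2 change was 0.02 in CC and -0.04 in CB, and the CB changes were -0.03 for Pkm, -0.12 for Aldoa and -0.01 for Eno1, whose CC change became 0.24. Hif1a, at 0.12 in CB without the offset, was at -0.10 with it. The changes of Ndrg1 (-1.12 in CC, -1.49 in CB) and Pdk1 (-0.44 and -0.68) kept their size under that offset.

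Summed over the 17 enzymes from hexokinase to lactate dehydrogenase, the members took 2269.8 and 2231 CPM in HOMO CC and 2487, 2449.7 and 2323 CPM in WT CC. In CB the sum was 2042 and 2071 CPM in HOMO and 2467, 2539.7 and 1943 CPM in WT. HOMO CC was below all WT CC libraries, while in CB the WT library 3 lay below both HOMO libraries and the other 2 WT libraries above them.

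Whether the change between fractions differed between the genotypes was tested by the interaction, the CC over CB change in HOMO minus that in WT. No member passed (0 of 31, beside 0% of all genes), 0 members had an unadjusted p under 0.05 (beside 2.62% of all genes), and DESeq2 and limma-voom also called 0. The strongest evidence by edgeR was for Slc16a3 (log2 difference 1.11, SE 0.72), Pfkfb3 (-0.18, SE 0.13), Pdk1 (0.25, SE 0.19) and Eno1 (0.25, SE 0.19), each with an adjusted p of 1.00. Aldoc differed by -0.09 (SE 0.24) and Hk2 by -0.26 (SE 0.21). The rise that passed in both genotypes for Aldoc and Pfkfb3, and in WT alone for the other 5 genes, is thus not shown to differ between genotypes, nor shown to be equal. Without both libraries of WT number 3, Gapdh (0.60, edgeR adjusted p = 0.00428), Eno1 (0.46, 0.00366) and Hif1a (0.37, 0.0225) passed the interaction, which is 3 of 30 members, beside 8.98% of all genes.

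Other genes around the pathway were counted by list, beside 2.46% of all genes tested that rose in CC and 2.98% that fell in HOMO. In WT these shares were 11.6% and 12.3%. Of 11 other glycolytic enzymes tested, 1 rose and 0 fell in CC in HOMO, and 3 rose and 1 fell in WT. Adpgk, an ADP-dependent glucokinase, rose in HOMO (log2 change 0.55, SE 0.14, edgeR adjusted p = 0.0484) and in WT (0.57, SE 0.12, adjusted p = 0.00564). In WT, G6pc3 (0.43) and Hk3 (2.75) also rose and Bpgm (-0.40) fell; Hk3, a hexokinase of myeloid cells, had 11.5 CPM in WT CC library 1 and at most 4.14 CPM elsewhere. Of 7 other glucose and lactate transporters 1 rose in HOMO and 2 in WT, with Slc2a6 in both (0.77, edgeR adjusted p = 0.0238 in HOMO and 0.82, adjusted p = 0.00188 in WT). Slc16a7 rose in WT, with 3.69 CPM in WT CC library 1 and at most 0.49 CPM elsewhere. Of 12 genes that bring pyruvate into the citrate cycle, 0 rose in either genotype and 1 fell in WT, the lipoamide dehydrogenase gene Dld (-0.68). Of 8 pentose phosphate genes, 0 passed in HOMO, and in WT H6pd (1.11) rose and Rpia (-0.67) and Taldo1 (-0.38) fell.

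Among other genes of oxygen sensing, more fell than rose in CC in WT. The counts below stand beside 2.46% of all genes that rose and 2.98% that fell in HOMO, and 11.6% and 12.3% in WT. Of 14 genes of HIF subunits and their control tested, 2 rose and 1 fell in HOMO, and 2 rose and 6 fell in WT, with medians of -0.29 and -0.44 against -0.01 and 0.01 over all genes. Siah2, a ubiquitin ligase that acts on the EGLN hydroxylases, rose in HOMO (log2 change 0.69, edgeR adjusted p = 0.014) and WT (0.68, adjusted p = 0.00188), as did Hif3a, an inhibitory HIF subunit (1.18, adjusted p = 0.0492 and 1.42, adjusted p = 0.00249). Cited2, which competes with HIF for its coactivator, fell in HOMO (-0.81, edgeR adjusted p = 0.0408) and WT (-1.31, adjusted p = 0.000399). Cul2, the scaffold of the ligase that destroys HIF, fell in WT (-0.82, edgeR adjusted p = 0.00333). Of 28 other known HIF target genes tested, 1 rose and 1 fell in HOMO, and 3 rose and 3 fell in WT, among them Ddit4 (0.79), Hmox1 (3.35) and Narf (-0.45) in WT, Mif (0.72) in HOMO and the dark zone chemokine receptor gene Cxcr4 (-1.43 in HOMO, -1.89 in WT). Hmox1 is also on the macrophage list, and had 103, 28.3 and 8.98 CPM in WT CC and at most 5.20 CPM elsewhere.

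Transcription factors known to act on glucose use were tested as a list of 13. Of these 2 rose and 1 fell in HOMO, beside 2.46% and 2.98% of all genes, and 4 rose and 1 fell in WT, beside 11.6% and 12.3%. Myc, which is also a light zone marker, had 69.8 and 68.4 CPM in HOMO CC against 30.3 and 30.7 CPM in HOMO CB, and 67.2, 69.6 and 75.8 CPM in WT CC against 30.2, 33.1 and 33.6 CPM in WT CB, with all CC libraries above all CB libraries. It rose by a log2 of 1.18 (SE 0.11, edgeR adjusted p = 0.000409) in HOMO and of 1.13 (SE 0.089, adjusted p = 2.8e-05) in WT. Tfap4, a target of MYC, rose in both (1.22 and 1.08), Foxo1, a factor of the dark zone, fell in both (-0.54 and -0.66), and Ppargc1b rose in WT (1.27). In HOMO against WT, 0 genes of any of these 7 lists passed in CC or in CB by edgeR. Of all genes 0% passed in CC, and 0.00603% passed as higher and 0.0181% as lower in CB.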

How the data were processed

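Per the labels' protocols, the RNeasy Plus Micro kit gave the RNA, and ribosomal RNA was removed (KAPA RNA HyperPrep with RiboErase) before sequencing. The authors deposited whole-number read counts per gene. The submitters' processing notes name the build mm10, featureCounts from Subread, STAR, FastQC and R 4.2.1. The strand setting, the annotation and the treatment of multi-mapping reads were not given in the sources used. All columns of the count table were tied to a group by name. HOMO columns are numbered 2 and 3 and the sample titles 1 and 2.

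Counts were filtered with filterByExpr (at least 10 counts, 15 in total), scaled by TMM and fitted with edgeR 4.0.16 (robust quasi-likelihood, 4 group means, all 10 libraries) in R 4.3.3, with Benjamini-Hochberg adjustment over 16596 genes. DESeq2 1.42.0, limma 3.58.1 (voom), other scalings and filters, fits on the compared groups alone, a test against a fold of 1.2, left-out libraries, a GC content offset and a block for WT numbers were the alternatives. The WT numbers are the same in both fractions. Across 8805 genes the deviations from group means of same-numbered WT libraries correlated at 0.30, 0.43 and 0.44, against -0.41 to 0.28 for different numbers. Deviations cancel out within a group, which pulls the values for different numbers down, and 0.30 is close to 0.28. These values do not set a pairing of the WT libraries. The main fit used no block, and the block for WT numbers was an alternative. Same-numbered HOMO columns correlated at 0.31 and different-numbered ones at -0.31, values that mirror each other with 2 libraries a group, and 2 pairs were too few to set a pairing. No pair of replicates agreed within counting noise (chi-square per degree of freedom of 4.14 or more). Shared sequence was counted as exact 50-base windows in the reference transcripts, and promoter windows came from RefSeq GRCm38.p6. The scripts were tested on simulated counts.

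The genes and gene lists were chosen with earlier results of these data known. Values per library are given for members that passed in at least 1 comparison or were the most abundant of their role, and a few others are named for their values where stated. Other lists give at most 4 genes that passed.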

Additional observations from a re-analysis of the deposited data

How the results depend on the processing

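The counts of members that passed moved by over 1.5 times in 52 combinations of comparison and alternative given here, those with a single library left out as ranges. Between genotypes in CB, 2 members were lower by DESeq2 (1.16% of all genes, as in the brackets that follow) and 2 without the filter on low counts (0.84%). In CC, 2 were lower by DESeq2 (3.26%), and 1 was higher (2.12%) and 2 lower (2.36%) without that filter. For CC against CB in WT, fits on the 2 groups alone gave 1 lower (7.94%). Leaving out WT number 1 gave 3 higher (3.06%) and 0 lower (3.27%), leaving out WT number 2 gave 4 (3.81%) and 0 (3.82%), and leaving out WT CC libraries 1 and 2 gave 3 (2.44%) and 0 (2.52%). A random block for the WT replicate number (limma-voom) gave 11 higher (16.1%), and a test against a fold of 1.2 gave 4 higher (6.65%). For CC against CB in HOMO, the higher members numbered 5 by DESeq2 (6.62%), 4 with upper-quartile scaling (3.53%), 10 in fits on the 2 groups alone (14.5%), 1 without the filter (2.31%), 1 by limma-voom (2.27%), 1 against a fold of 1.2 (1.25%), 1 without WT number 1 (1.68%) and 1 without WT number 2 (2.01%). The lower members numbered 4 in fits on the 2 groups alone (15.9%), 2 without the filter (2.73%) and 2 without WT CC libraries 1 and 2 (4.3%). Fits with the fixed WT replicate block gave 8 higher (6.3%) and 1 lower (7.53%). That block with the GC content offset gave 4 higher (4.86%), and the random replicate block gave 1 higher (2.37%). A fixed replicate block that also held the HOMO column numbers, chosen after seeing the data, gave 5 higher (5.22%) and 0 lower (6.07%) in HOMO and changed no other count by over 1.5 times.

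Leaving out WT number 3 moved the most counts: between genotypes, 1 higher and 11 lower in CB (15.3% and 15.1%) and 5 and 9 in CC (16.5% and 14.8%), 8 lower for CC against CB in WT (23.9%), 9 higher (10.0%) and 3 lower (13.0%) in HOMO, and 3 for the interaction (8.98%). With 1 library left out at a time, between genotypes lower members numbered 0 to 6 in CB, and in CC higher members numbered 0 to 3 and lower members 0 to 2. The shares of all genes ran from 0% to 5.64% lower in CB, and from 0% to 7.45% higher and 0% to 7.37% lower in CC. For CC against CB the members that passed ran from 5 to 10 higher and 1 to 6 lower in WT, and from 0 to 6 higher and 0 to 1 lower in HOMO. The shares of all genes then ran from 5.91% to 15.9% higher and 6.75% to 16.8% lower in WT. In HOMO those shares were 0.342% to 4.87% higher and 0.608% to 5.22% lower. The interaction gave 0 each time. The causes of these shifts were not tested.

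Pfkfb3, Pfkfb4 and Aldoc passed in WT in 27 of 27 alternatives, Hk2 in 25, Hif1a in 24, Pfkp in 23 and Bnip3l in 22. With 2 HOMO libraries a group, and with Ldhb, Egln3 and Vegfa near the limit of detection, small differences between genotypes could not be resolved. Slc16a3 was low as well.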
